A study of Trichoderma reesei with 6 samples.

Results

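The hydrophobin genes *hfb1*, *hfb2*, *hfb3* and TRIREDRAFT_106538 and the cell wall protein gene TRIREDRAFT_122127 (PhiA) are 5 of the 9113 genes in the expression table of *Trichoderma reesei*. They were taken from the table by name, 3 by symbol and the other two by locus tags that the study annotates as class II hydrophobin and cell wall protein PhiA. *hfb1*, TRIREDRAFT_106538 and TRIREDRAFT_122127 also stand in the study's list of differentially expressed genes, which was drawn from these same libraries, so that a call of these genes is not independent evidence of its direction. Transcripts were sequenced from mycelia of the reference strain QPP (3 libraries) and of the *gul1* deletion mutant, named dgul1 in the labels and Δ*gul1* here (3 libraries). Both strains came from QP4, a uridine auxotroph of the QM9414 lineage without *pyr4*, and both carry *pyrG* of *Aspergillus niger*, which took the place of most of *gul1* in Δ*gul1* and sits at a random site in QPP. Δ*gul1* is 1 transformant, so the deletion cannot be told apart from other differences of that isolate. Each culture was grown for 36 hr on 2% glucose and then for 48 hr on 1% cellulose at 30°C. The study gives the cultures as biological triplicates.

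Hydrophobins are small secreted proteins of filamentous fungi with a conserved pattern of cysteines. They are amphipathic, gather at interfaces between water and air, and coat aerial hyphae and conidia, which makes these surfaces water-repellent and lets hyphae leave the liquid. *T. reesei* is known for class II hydrophobins, which form films that dissolve more readily than those of class I. HFBI has a role in hyphal development and is typical of glucose-grown mycelium, and HFBII is typical of growth on cellulose and other polymers and of conidiating cultures. PhiA is a cell wall protein that *Aspergillus nidulans* needs to form normal phialides, the cells that bud off conidia.

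The hydrophobin transcripts did not move as a group when *gul1* was deleted. *hfb1* and TRIREDRAFT_106538 were higher in Δ*gul1*, at 9.91 and 10.8 times their mean scaled level in QPP, and *hfb3* was lower, at 0.621 times. For *hfb2*, the most abundant transcript of every library, the scaled levels of the strains overlapped. The PhiA gene was at 3.11 times its level in QPP. FPKM are fragments scaled by gene length and library total. All 9006 genes detected in any library entered 1 limma fit, and those past the study's thresholds (a log2 fold change beyond 1 either way and an unadjusted *p* under 0.05) are named called. By this rule 3 of the 5 genes were called higher and 0 lower. Over all genes tested 1.87% were called higher and 2.09% lower, 3.95% in all. After Benjamini-Hochberg adjustment of the limma values, *p* stayed under 0.05 for 4 of the 5 and for 29.6% of all genes. For these 4 genes the exact permutation test gave *p* = 0.1, the lowest it can reach with 3 libraries a strain. It reaches this value wherever the scaled strains do not overlap, as in 45% of all genes. The median log2 fold change was 1.64 over the 5 genes and 0.01 over all genes. The former is the value of TRIREDRAFT_122127, 1 of the 3 genes also in the study's list, and does not show a rise of the group.

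**Figure D1:**
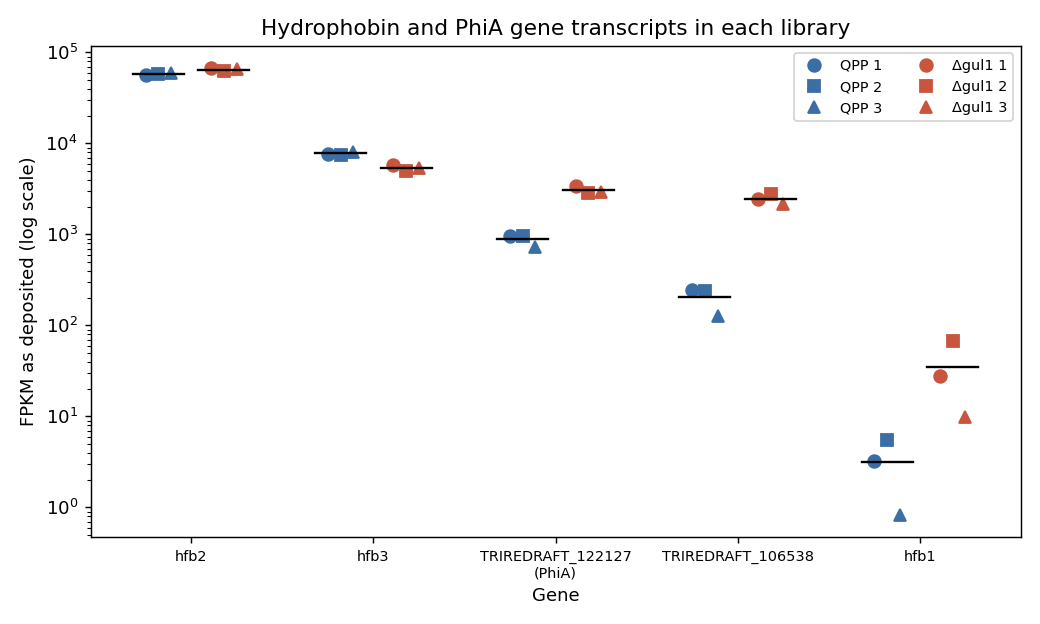
FPKM as deposited (log axis) of the 5 genes in each library, with QPP in blue, Δ*gul1* in red, a symbol for each replicate and a bar at the mean of each strain. In these deposited values the strains are apart for every gene, *hfb2* and *hfb3* by little. After scaling those of *hfb2* overlap, and 45% of all genes are apart. The share of all genes apart as deposited was not computed. *hfb1* spreads most within a strain, from 0.829 to 5.46 FPKM in QPP and from 9.90 to 67.0 FPKM in Δ*gul1*.

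As a check of the labels, *gul1* (TRIREDRAFT_77084) was at 79.9 to 86.9 FPKM in the QPP libraries and at 0.581 to 0.979 FPKM in the Δ*gul1* libraries. The totals that the FPKM are divided by could be recovered from the values and lay between 17654286 and 21659230 fragments per library. Dividing the FPKM by size factors between 0.931 and 1.07 centred the strains on each other. Without this step the median over all genes was 0.14 on the log2 scale, and the share of calls that were higher in Δ*gul1* was 61.2%, against 47.2% with it. Levels below are the FPKM as deposited, and fold changes are those of log2(scaled FPKM + 1).

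*hfb2* (TRIREDRAFT_119989, from 17118 to 17828 on its scaffold in the QM6a assembly v2.0, scaffold name not given in the tables used) encodes HFBII. It was at 57089, 57336 and 58698 FPKM in QPP replicates 1 to 3, and at 66987, 62133 and 65386 FPKM in Δ*gul1* replicates 1 to 3. These numbers rest on 624147 to 787199 fragments per library, so that counting error is negligible. As deposited, the lowest Δ*gul1* value exceeded the highest QPP value, with a ratio of means of 1.12. After scaling, the strains overlapped and the ratio of means was 1.01. This gave 0.01 as log2 fold change (SE 0.497, limma adjusted *p* = 0.991). The trend of the limma fit has no other gene within 3 times the level of *hfb2* and gave it a standard error 12.7 times that of its own libraries. Fitted without the trend, the SE was 0.0629 and the 95% interval of the scaled ratio ran from 0.908 to 1.12. The sign of this difference turned with the scaling, to a log2 fold change of −0.01 with upper quartile scaling and 0.17 with the FPKM as deposited.

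Of all 9113 genes, *hfb2* had the highest FPKM in each of the 6 libraries. The next gene by mean level was the cellobiohydrolase gene *cel7a* in QPP, at 27852 FPKM, and *cel61b*, a gene for a copper-dependent polysaccharide monooxygenase, in Δ*gul1*, at 16478 FPKM. *hfb2* took 6.73, 6.62 and 6.65% of the summed FPKM in QPP replicates 1 to 3, against 7.19, 7.12 and 7.25% in Δ*gul1*. As a share of the recovered fragment total that the FPKM are divided by, it took 3.25 to 3.34% in QPP and 3.54 to 3.81% in Δ*gul1*. This share does not divide by gene length. Both shares were higher in all 3 Δ*gul1* libraries than in any QPP library.

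*hfb3* (TRIREDRAFT_123967, from 139836 to 140658 on its scaffold) was the second most abundant hydrophobin transcript. It was at 7719, 7493 and 8079.8 FPKM in QPP replicates 1 to 3, and at 5858, 4969.7 and 5309.9 FPKM in Δ*gul1*. The strains did not overlap. After scaling this held for 4 of the 5 genes, *hfb2* being the exception, and for 45% of all genes. The scaled level in Δ*gul1* was 0.621 times that in QPP, or −0.69 on the log2 scale (SE 0.147, limma adjusted *p* = 0.0106). This did not reach the threshold on the fold change under any setting tried. By mean level *hfb3* ranked 8 among all genes in QPP and 10 in Δ*gul1*. Without Δ*gul1* replicate 3 the adjusted *p* was 0.0541 by limma, with a log2 fold change of −0.68.

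The ratio of these most abundant transcripts differed between the strains. Within QPP libraries *hfb2* was 7.40, 7.65 and 7.26 times *hfb3*, and within Δ*gul1* libraries 11.4, 12.5 and 12.3 times. A ratio within a library does not depend on scaling, and shows that the pair changed unequally. The difference was 0.70 on the log2 scale (two-sided exact permutation test, *p* = 0.1, the lowest value possible with 3 libraries a strain).

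TRIREDRAFT_106538 (from 951642 to 952129 on its scaffold) encodes a class II hydrophobin without a symbol in the tables used. Its levels in QPP replicates 1 to 3 were 245, 239 and 126 FPKM, and in Δ*gul1* 2446, 2799 and 2136 FPKM. The lowest Δ*gul1* library stood far above the highest QPP library, and QPP replicate 3 was well below the other two of its strain. On the log2 scale it rose by 3.48 (SE 0.246, limma adjusted *p* = 6.30e-05), a fold of 11.2 with a 95% interval from 7.52 to 16.6. Only 4 of the 9006 genes had a higher log2 fold change. Its rank by mean level was 620 in QPP and 31 in Δ*gul1*, and its share of the summed FPKM went from 0.0236 ± 0.00807% to 0.273 ± 0.0429% (SD, *n* = 3).

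*hfb1* (TRIREDRAFT_73173, from 1048937 to 1049645 on its scaffold) encodes HFBI and was the scarcest of the hydrophobin transcripts. It was at 3.21, 5.46 and 0.829 FPKM in QPP replicates 1 to 3, and at 27.5, 67.0 and 9.90 FPKM in Δ*gul1*. All Δ*gul1* libraries were above all QPP libraries, but the gap between 5.46 and 9.90 FPKM was narrow beside the spread within each strain. The fragments behind these levels were 37, 68 and 9 in QPP and 327, 680 and 110 in Δ*gul1*. From counting alone, the 95% exact Poisson interval was 0.379 to 1.57 FPKM in QPP replicate 3 and 62.0 to 72.2 FPKM in Δ*gul1* replicate 2, and the spread among the Δ*gul1* libraries was far wider than such intervals. These intervals cover counting error only.

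*hfb1* rose by 2.78 on the log2 scale (SE 0.680, limma adjusted *p* = 0.0189), a fold of 6.87 with a 95% interval from 2.30 to 20.5. This is a fold of scaled FPKM + 1, which understates the change of so low a gene. With a pseudocount of 0.1 the log2 fold change was 3.21. The ratio of scaled means, which takes no pseudocount, was 9.91. The highest library was Δ*gul1* replicate 2, at 67.0 FPKM. The log2 fold change was 2.13 without Δ*gul1* replicate 2 and 3.45 without Δ*gul1* replicate 3, and the call was kept in both. Its adjusted *p* was 0.0506 by limma without Δ*gul1* replicate 1, and 0.0537 in a fit of the recovered fragments with voom weights, where the log2 fold change was 3.15. Its within-strain SD of 1.15 on the log2 scale was larger than that of 99.9% of all genes, and larger than in 99.95% of the 4264 genes within 3 times its mean level, whose median SD was 0.108. TRIREDRAFT_106538 had an SD of 0.408, while those of *hfb3* (0.102) and *hfb2* (0.0479) were small.

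The direct comparison of the 2 raised hydrophobin genes did not separate their changes. TRIREDRAFT_106538 was 76.3, 43.8 and 153 times *hfb1* in QPP replicates 1 to 3, and 88.8, 41.8 and 216 times in Δ*gul1*. The ratios of the strains overlapped (difference 0.22 on the log2 scale, two-sided exact permutation test, *p* = 0.8). Against *hfb3*, TRIREDRAFT_106538 was at 0.0157 to 0.0319 of its level in QPP and at 0.402 to 0.563 in Δ*gul1* (difference 4.18 on the log2 scale, exact permutation, two-sided, *p* = 0.1, again the lowest possible).

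**Figure D2:**
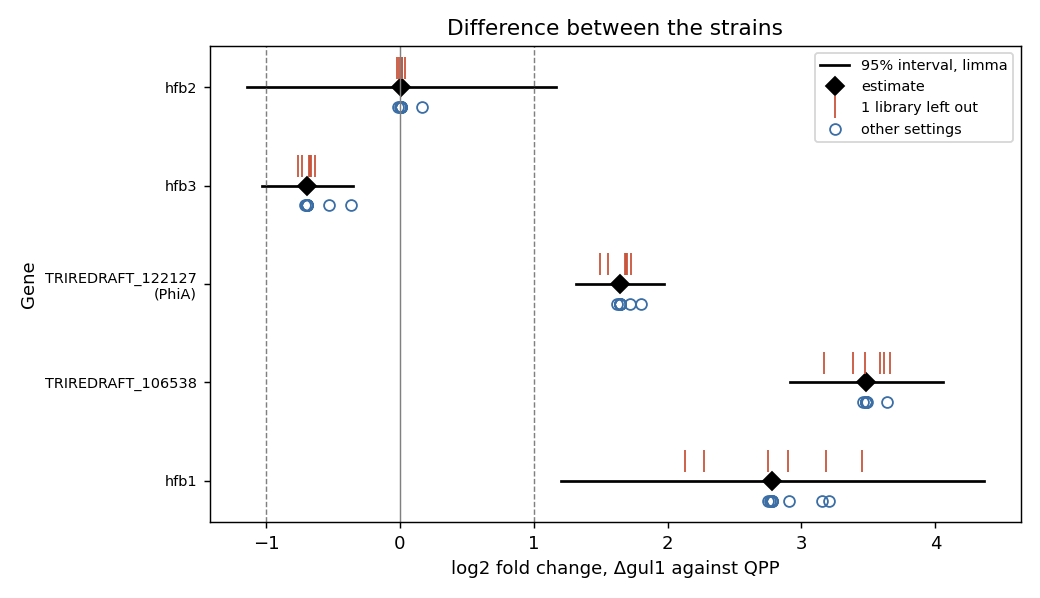
Log2 fold change of each gene, Δ*gul1* against QPP. Diamonds and lines are the limma estimate with its 95% interval, red ticks the values with 1 library left out, blue circles those under other settings, and dashed lines the threshold of 1. The estimates of TRIREDRAFT_106538, TRIREDRAFT_122127 and *hfb1* stay beyond 1 throughout. Those of *hfb3* stay between −1 and 0, while its interval runs from −1.03 to −0.35. *hfb2* stays near 0 with a wide interval that comes from the trend of the fit.

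TRIREDRAFT_122127 (from 961219 to 962035 on its scaffold), the PhiA gene, was at 967, 965 and 719 FPKM in QPP replicates 1 to 3, and at 3424, 2849.7 and 2915 FPKM in Δ*gul1*. The strains were clearly apart, with QPP replicate 3 again the lowest library. It rose by 1.64 on the log2 scale (SE 0.141, limma adjusted *p* = 0.000157), a fold of 3.12 with a 95% interval from 2.49 to 3.92. Leaving out any 1 library gave log2 fold changes from 1.498 to 1.73. In QPP the PhiA transcript was 3.95 to 5.68 times as abundant as that of TRIREDRAFT_106538, and in Δ*gul1* only 1.02 to 1.40 times (difference −1.85 on the log2 scale, exact permutation, two-sided, *p* = 0.1, again the lowest possible). By mean level it ranked 96 in QPP and 19 in Δ*gul1*.

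In both strains the order of the mean levels was *hfb2*, *hfb3*, TRIREDRAFT_122127, TRIREDRAFT_106538 and *hfb1*. In QPP the libraries of neighbours in this order did not overlap. In Δ*gul1* they did not overlap either, but TRIREDRAFT_122127, at 3063 ± 314 FPKM, and TRIREDRAFT_106538, at 2460.3 ± 331 FPKM (SD, *n* = 3), came close, and in Δ*gul1* replicate 2 they were within 1.02 times of each other.

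**Figure D3:**
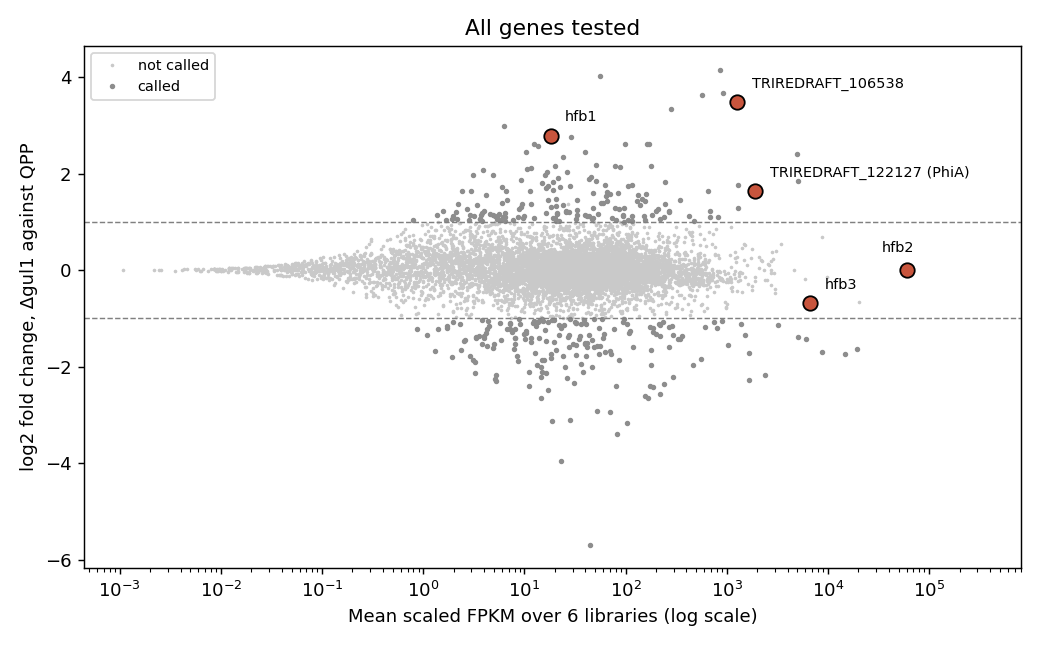
Log2 fold change against mean scaled FPKM (log axis) for the 9006 genes tested, with called genes in dark grey, the other genes in light grey, the 5 genes in red and the threshold of 1 as dashed lines. *hfb2* lies far to the right of all other genes at a log2 fold change of 0.01, and TRIREDRAFT_106538, at 3.48, is among the most raised genes.

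Taken as a group, the 4 hydrophobin genes made up 7.66, 7.51 and 7.57% of the summed FPKM in QPP replicates 1 to 3, against 8.09, 8.02 and 8.08% in Δ*gul1*. The mean share was higher in Δ*gul1* by 0.480 percentage points (exact permutation, two-sided, *p* = 0.1, again the lowest possible). The share of *hfb2* was higher by 0.527 points and that of TRIREDRAFT_106538 by 0.250 points, and that of *hfb3* differed by −0.300 points. *hfb1* remained a trace, at 0.000367 ± 0.000268% in QPP and 0.00391 ± 0.00339% in Δ*gul1* (SD, *n* = 3). The denominator also changed between the strains. The 10 genes of highest mean level other than the 5 took 13.8 ± 0.667% of the summed FPKM in QPP and 9.49 ± 0.668% in Δ*gul1*. With these genes left out of the sum, the hydrophobin share was 8.79 ± 0.146% in QPP and 8.91 ± 0.106% in Δ*gul1*, and the strains overlapped (two-sided exact permutation test, *p* = 0.4).

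The make-up of the hydrophobin transcripts differed more than their sum. *hfb2* was 87.7 to 88.1% of the hydrophobin FPKM in QPP and 88.8 to 89.8% in Δ*gul1*. *hfb3* went from 11.8 ± 0.284% to 7.39 ± 0.349%. TRIREDRAFT_106538 went from 0.311 ± 0.106% to 3.39 ± 0.548% (SD, *n* = 3). In Δ*gul1* it was still at 0.402 to 0.563 of the level of *hfb3*.

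**Figure D4:**
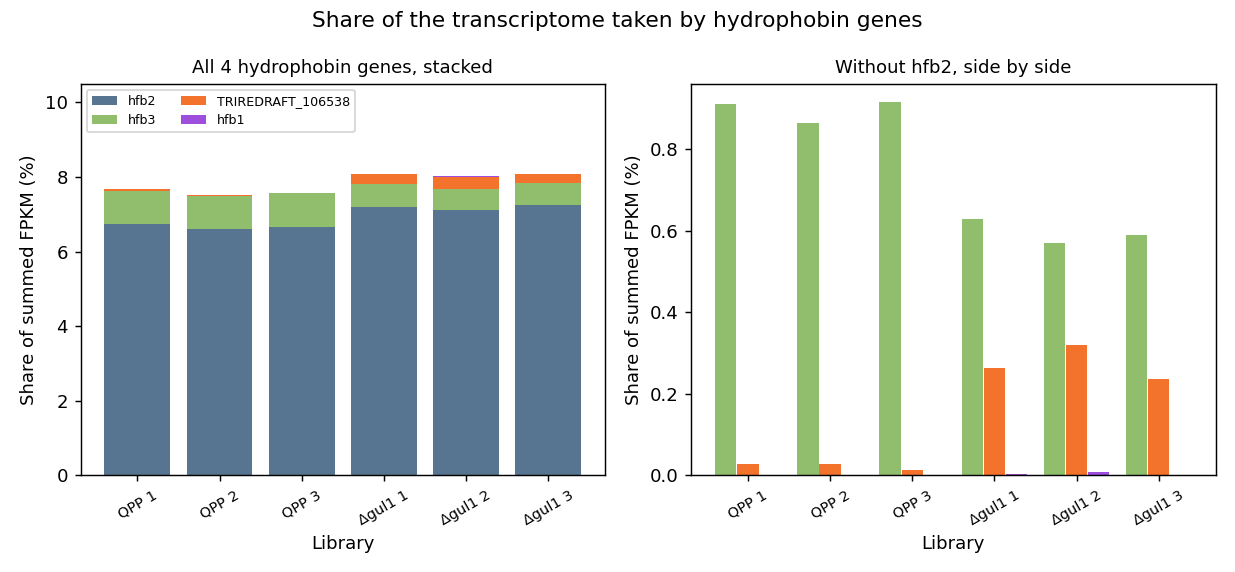
Share of the summed FPKM (%) of the 4 hydrophobin genes in each library, stacked on the left and for *hfb3*, TRIREDRAFT_106538 and *hfb1* side by side on the right. The stacks reach 7.51 to 7.66% in QPP and 8.02 to 8.09% in Δ*gul1*, with a thinner *hfb3* layer and a thicker TRIREDRAFT_106538 layer in Δ*gul1*.

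The libraries of a strain were also compared gene by gene. On scaled values, the deviations of *hfb2* and *hfb3* from their strain means had the same sign in 6 of 6 libraries. Their order matched in both strains (r = 0.99 across the 6 libraries, a description that leaves out the difference between the strains). As deposited, the order in QPP did not match, with replicate 1 lowest for *hfb2* (57089 FPKM) and replicate 2 for *hfb3* (7493 FPKM). The scaled deviations were small, from −0.11 to 0.14 on the log2 scale for *hfb3* and from −0.06 to 0.06 for *hfb2*. *hfb1* and TRIREDRAFT_106538 also deviated the same way in 6 of 6 libraries (r = 0.79), with the same order in Δ*gul1* but not in QPP. Both were lowest in replicate 3 of either strain, by 1.02 and 0.62 below the mean of QPP and by 1.35 and 0.21 below the mean of Δ*gul1*. In Δ*gul1*, replicate 2 was the highest for both, by 1.297 and 0.20. TRIREDRAFT_122127 shared 5 of 6 signs with TRIREDRAFT_106538 (r = 0.79), with the same order in QPP but not in Δ*gul1*, and 5 with *hfb1* (r = 0.44), with another order in both. For *hfb2* and *hfb1* 3 of 6 signs were the same (r = −0.55). A library lends its depth and size factor to all genes, so these values are not independent, and with 2 strain means removed from 6 values even a high r is a weak description.

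**Figure D5:**
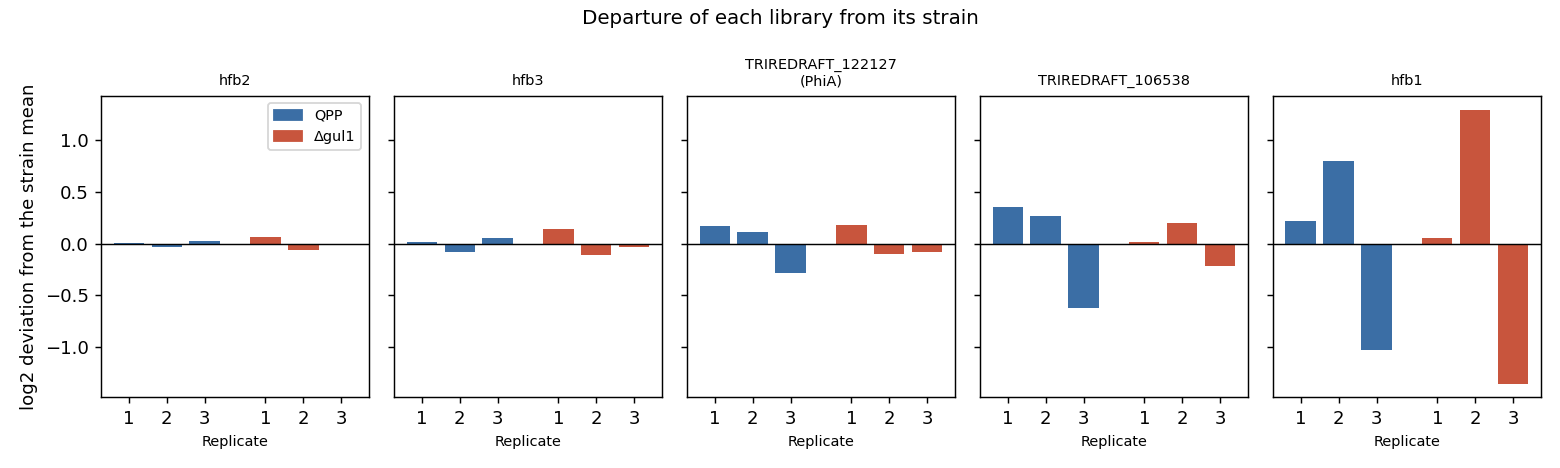
Deviation of each library from its strain mean on the log2 scale, by replicate, for the 5 genes (QPP blue, Δ*gul1* red, same axis in all panels). *hfb1* ranges from −1.35 to 1.297, TRIREDRAFT_106538 and TRIREDRAFT_122127 are lowest in QPP replicate 3, and *hfb2* and *hfb3* barely leave 0.

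Replicate 3 of QPP was low for all 3 raised genes. Without it, the log2 fold changes were 2.27 for *hfb1*, 3.17 for TRIREDRAFT_106538 and 1.498 for TRIREDRAFT_122127, and all were still called. What set this library apart was not tested.

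For each gene, the most similar patterns over the 6 libraries were looked for among the 6672 other genes averaging 10 FPKM or more. Likeness was measured by the root mean square difference of log2 values centred on each gene's mean. This measure takes in both strains, so a log2 fold change near that of the matched gene follows from the choice. For *hfb1* the nearest was TRIREDRAFT_119552 (difference 0.58), followed by TRIREDRAFT_55886, a family GH16 glucan endo-1,3(4)-β-D-glucosidase gene that acts on wall-type glucans (0.62), and TRIREDRAFT_112258 (0.66). TRIREDRAFT_55886 had 3.97, 3.11 and 1.11 FPKM in QPP replicates 1 to 3, against 20.8, 31.3 and 17.6 FPKM in Δ*gul1*. It was chosen for this likeness, and its mean reached 10 FPKM only through the Δ*gul1* libraries. These differences were larger than those of the nearest genes of the other 4. For TRIREDRAFT_106538 the nearest were TRIREDRAFT_61526 (0.26), TRIREDRAFT_123236 (0.26) and TRIREDRAFT_59151 (0.34), with log2 fold changes of 3.33, 3.64 and 3.66.

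For TRIREDRAFT_122127 the closest patterns were those of TRIREDRAFT_69692 (0.07), of the alcohol oxidase gene TRIREDRAFT_123978 (0.09) and of TRIREDRAFT_123955 (0.10). TRIREDRAFT_123955 was abundant itself, at 219 to 360 FPKM in QPP and 908 to 1201 FPKM in Δ*gul1*. *hfb3* was matched by TRIREDRAFT_108637 (0.04), TRIREDRAFT_47733 (0.05) and TRIREDRAFT_54036 (0.06), with log2 fold changes of −0.71, −0.62 and −0.77. *hfb2* was matched within 0.02 by TRIREDRAFT_33342, TRIREDRAFT_120510 and TRIREDRAFT_59296, all of which had log2 fold changes between 0.01 and 0.03.

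The study annotates 6 further genes of these libraries' differentially expressed genes as cell wall proteins or regulators of conidiation, a choice made on the same samples. In the limma fit 1 of the 6 was called higher and 3 lower, against 1.87% and 2.09% of all genes, and all 6 had an adjusted *p* under 0.05, against 29.6% of all genes. The *brlA* gene TRIREDRAFT_108357, whose product switches on conidiophore development in *Aspergillus*, had 1263, 1100.4 and 1085 FPKM in QPP replicates 1 to 3, against 590.5, 656 and 599 FPKM in Δ*gul1*. It fell by 1.06 on the log2 scale (SE 0.0893, limma adjusted *p* = 0.000147), which was short of the threshold without QPP replicate 1 (−0.98), with the FPKM as deposited (−0.90) and with quantile normalization (−0.99). The *wetA* gene TRIREDRAFT_4430, which acts late in conidium maturation in *Aspergillus*, was at 5.87 to 8.85 FPKM in QPP and 14.9 to 19.96 FPKM in Δ*gul1*. With 0.95 on the log2 scale it was under the threshold, which it passed without QPP replicate 2 (1.05), without Δ*gul1* replicate 1 (1.02), with the FPKM as deposited (1.09), with a pseudocount of 0.1 (1.03) and with voom weights (1.02), so that 2 of the 6 were then called higher. The pair of regulators thus had opposite signs while the PhiA gene was higher.

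Of the other annotated genes, the GPI anchored mannoprotein gene TRIREDRAFT_123475 rose from 471 to 515 FPKM in QPP to 1065 to 1316 FPKM in Δ*gul1* (log2 fold change 1.10). The cell wall protein gene TRIREDRAFT_104277 fell from 21.9, 26.4 and 36.2 FPKM to 5.23, 4.29 and 4.51 FPKM (log2 fold change −2.48), and the WSC domain gene TRIREDRAFT_102735 fell with −1.41. TRIREDRAFT_105869, annotated as a cell wall protein, was at 1.98 to 2.30 FPKM in QPP and 0.680 to 1.26 FPKM in Δ*gul1*. The difference was −0.73 on the log2 scale, under the threshold, and past it with a pseudocount of 0.1 in place of 1 (−1.17) and with voom weights (−1.25). The study's prediction of 86 GPI anchored proteins, which holds none of the 5 genes and does not depend on these libraries, had 5 genes called higher and 7 lower, against 1.87% and 2.09% of all genes. An adjusted *p* under 0.05 by limma was found for 47 of the 86, against 29.6% of all genes, and the median of the list was 0.01 on the log2 scale.

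None of the 5 genes overlaps a neighbour in the annotation. The 10 flanking genes, taken from the order of the annotation table and looked up after the values of the 5 had been seen, had log2 fold changes from −0.46 to 0.74, and 0 of them were called (limma, 6 at an unadjusted *p* under 0.05 and 4 at an adjusted *p* under 0.05). Of all genes, 3.95% were called and 29.6% had such an adjusted *p*. TRIREDRAFT_107949 ends 147 bp before TRIREDRAFT_122127 and stayed at 0.163 to 0.893 FPKM in all libraries. On the other side TRIREDRAFT_78465 was at 109 to 143 FPKM in QPP and 189 to 203 FPKM in Δ*gul1* (log2 fold change 0.51). TRIREDRAFT_106537, next to TRIREDRAFT_106538, had 0.74, from 1.40 to 2.35 FPKM in QPP to 4.26 to 4.33 FPKM in Δ*gul1*. How reads shared by similar hydrophobin genes were assigned, and whether counting used the strand, is not given in the sources used here.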

How the data were processed

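The authors trimmed adapters with cutadapt, used HISAT2 to place the paired reads on the QM6a genome (v2.0), took fragments of each gene from HTSeq and deposited them as FPKM, one column for each library. Version 3.58.1 of limma (R 4.3.3, lmFit and eBayes with a trend) was run on the whole table as log2(FPKM divided by median-of-ratios size factors + 1), with strain as the only term and Benjamini-Hochberg adjustment over 9006 genes. Exact permutation tests and shares were computed with Python 3.11.15 and scipy 1.17.1. The pseudocount understates changes of low genes. Fragments were recovered as whole multiples (within 0.01) of what 1 fragment is worth at a gene length up to the annotated span, for 9002 genes, and each of the 5 genes had 1 possible length. Libraries of 1 strain differed beyond counting noise (mean chi-square per gene 11.2 to 27.1), so none was taken as a duplicate. The fragments served for depth, counting intervals and 1 alternative. The fit was tested on simulated data.

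The 5 genes and the gene lists were chosen with earlier results of these data known. Named genes are the 5, *gul1*, the annotated wall and conidiation genes, the 3 most similar patterns per gene and, added later, the flanking genes. Alternatives were FPKM as deposited, upper quartile and quantile scaling, a pseudocount of 0.1, a minimum mean of 1 FPKM, no trend, an adjusted *p*, a replicate block, leaving out each library, other denominators of the share and, chosen after seeing the data, voom weights. Hydrophobin genes without a name or annotation were not analysed here.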

Additional observations from a re-analysis of the deposited data

How the results depend on the processing

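The calls of *hfb1*, TRIREDRAFT_106538 and TRIREDRAFT_122127 and the lack of a call of *hfb2* and *hfb3* were kept under all 15 alternatives. The number of genes called higher was 289 with a pseudocount of 0.1 and 316 with voom weights, in place of 168, and 163 to 181 when any 1 library was dropped. Of the predicted GPI anchored proteins, 4 in place of 7 were called lower with the FPKM as deposited. The log2 fold change of *hfb2* was −0.0111 with upper quartile scaling, 0 with quantile normalization, where the top gene has the same value in every library by construction, and between −0.0231 (without Δ*gul1* replicate 1) and 0.0380 (without Δ*gul1* replicate 2) with each library left out, with −0.00935 without QPP replicate 2. The rise of the hydrophobin share was 0.588 points against the genes other than the 5, and 0.114 points without the 10 highest other genes. With each library left out, the share rose by 0.443 to 0.521 points.

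Deviations of same-numbered libraries had correlations of −0.13, 0.23 and 0.45 over 6677 genes. Those of different-numbered libraries from different strains ran from −0.53 to 0.43. These values do not settle whether the numbers pair the libraries. With the replicate number as a block, the log2 fold change of *hfb1* was 2.78 with an adjusted *p* of 0.000168 (limma), and no call of the 5 genes changed. The SE was 0.169 in place of 0.680 for *hfb1*, 0.141 in place of 0.246 for TRIREDRAFT_106538 and 0.113 in place of 0.141 for TRIREDRAFT_122127. It was larger for *hfb3* (0.181 in place of 0.147) and *hfb2* (0.708 in place of 0.497). Depth limits only *hfb1*, whose lowest library had 9 fragments.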
